A study of Mus musculus with 192 samples.

Results

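The effect of blocking miR-433-3p on mRNA was measured in mouse embryonic stem cells (mESCs) of the E14 line. All libraries labelled as transfected with the miR-433-3p inhibitor (3) or with the scrambled inhibitor (3) were taken, which is 6 of the 192 samples of the series. Both groups were undifferentiated cells in 2i medium, which holds a MEK inhibitor, a GSK3 inhibitor and LIF, with fetal bovine serum present during transfection. Each group had 1 library in each of 3 batches, and the reagents were used for 48 h at 2x, where 1x is 100 nM. The inhibitor was a locked nucleic acid oligonucleotide that binds the mature miR, and the scrambled oligonucleotide matched no miR and controlled for the transfection. Further references were 3 libraries of untreated cells, 39 of cells given inhibitors of 13 other miRs, and 3 of cells given a miR-433-3p mimic for 24 h at 1x. All inhibitor libraries come from 1 cell line, and RNA was extracted from whole wells, so a change in RNA per cell cannot be told apart from a change in the mix of cells.

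A miR guides an Argonaute protein to mRNAs by pairing of its seed, bases 2 to 8 counted from its 5′ end, with sites that lie mostly in 3′ UTRs, and the bound mRNA is translated less and degraded faster. A mimic therefore lowers mRNAs with seed sites, and an inhibitor is used to raise them. miR-433-3p is made from the Mir433 hairpin in the imprinted Dlk1-Dio3 domain on chromosome 12, a domain whose non-coding RNAs Meg3, Rian and Mirg are read from the maternal chromosome and carry many miRs. The hairpin lies at chr12:109591715-109591838 on the plus strand of GRCm38 (the same build as mm10), within the body of Rtl1 on the opposite strand, and the 3p arm spans chr12:109591781-109591802.

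The mature sequence is printed below 5′ to 3′ as RefSeq gives it, with the seed in capitals, because the sites searched in 3′ UTRs follow from it.
miR-433-3p: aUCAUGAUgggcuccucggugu
Of 1679 mature mouse miRs in the table used, 1 has this seed, so no other listed miR shares its seed sites. An 8mer site is ATCATGAA in the mRNA, a 7mer-m8 site is ATCATGA without the closing A, and a 7mer-A1 site is TCATGAA without the leading A. The sites were searched on the mRNA strand only, and each gene was put in the class of its best site.

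The sites in the genes that the study ties to this miR are shown next, together with those of 2 genes that the mimic lowered strongly (chosen after their values were seen). Each is a window of 30 bases on the mRNA strand of GRCm38, and capitals mark the 8mer.
Acad8: ctcagttcaagtgaATCATGAAgtagacca
Creb1, first site: gtgcagcgccaggaATCATGAAgagacttc
Creb1, second site: gaggggttgaaggtATCATGAAgttgagtc
Grb2: tggaattggtgtatATCATGAAgccttgct
Prdx3: attgaagaggtataATCATGAAggactatg
Naa40: tctgtctgtcttagATCATGAAtctctgat
The Acad8 window is chr9:26975608-26975637 on the minus strand, and its site starts 85 bases after the stop codon in a 3′ UTR of 1573 bases. The Creb1 windows are chr1:64597586-64597615 and chr1:64601629-64601658 on the plus strand, and the sites start at bases 222 and 4265 of a 3′ UTR of 7170 bases. The Grb2 window is chr11:115644190-115644219 on the minus strand, with the site at base 1564 of 1724. The Prdx3 window is chr19:60864131-60864160 and the Naa40 window chr19:7226267-7226296, both on the minus strand. All 6 sites lie in the last exon of their gene.

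Undifferentiated cells of this line held much miR-433-3p. In small RNA libraries made before the addition of retinoic acid its scaled read count, in CPM of all miR reads, was 4563, 1478, 1879 and 1306 in the 4 replicates, which ranked it between 45th and 92nd of all miRs. The first replicate listed was clearly the highest and the other 3 lay close together. Its median at 0 h was 1678 CPM, above that of all 13 other inhibited miRs, of which miR-152-3p was next with a median of 840.7 CPM. The 5p arm of the same hairpin averaged 23.3 CPM at 0 h. Over 96 h of retinoic acid the median of miR-433-3p ranged from 1032 CPM at 48 h to 2926 CPM at 12 h. These libraries came from separate experiments, and small RNA of transfected cells was not analysed here, so the loss of free miR-433-3p after transfection has no measure of its own.

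**Figure D1:**
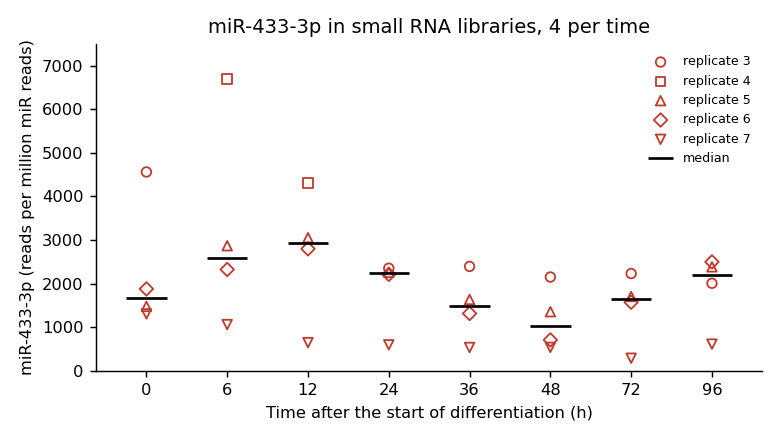
miR-433-3p in CPM of all miR reads (y axis) against hours of retinoic acid (x axis, evenly spaced), with 1 symbol per replicate and a line at each median. The 4 libraries at 0 h lay between 1306 and 4563, and the medians between 1032 and 2926.

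The 6 libraries expressed the marker genes of naive mESCs. Across them Pou5f1 ranged from 1235 to 1439 TPM, a level scaled for transcript length, and Nanog from 449.0 to 667.6 TPM, Gata6 and Sox17 of the primitive endoderm and T of the mesoderm were at most 2.38, 3.23 and 3.24 TPM, and of the fibroblast genes Col1a1 was at 0.45 to 0.91 TPM while Col3a1 and Dcn were at 0. Total counts were 12567814 to 23890641 with the miR-433-3p inhibitor and 9699077 to 23843575 with the scrambled inhibitor. The miR-433-3p library of batch 1 had 16904 genes with a count, the fewest of all 48 inhibitor libraries, although its total count ranked 29th. The scrambled library of batch 3 was next with 17496 genes, at a total count that ranked 40th. The libraries of 1 group did not sit together, however. On the first principal component of all 48 inhibitor libraries, with batch means removed and 14.4% of the variance, the miR-433-3p libraries of batches 1, 2 and 3 were at 31.0, 7.26 and 27.9, and the scrambled libraries at 16.0, -12.04 and -12.14. The scrambled library of batch 1 was thus 6th from the top of 48, among the miR-433-3p libraries, while those of batches 2 and 3 were 45th and 47th. Single libraries of other inhibitors lay at the top too. These were miR-152-3p of batch 3 (1st, at 33.3), miR-100-5p of batch 1 (2nd, at 31.4) and miR-467e-5p of batch 2 (5th, at 16.9). Position on this axis moved with base composition. The slope of a gene's deviation on the GC content of its transcript was -0.20, -0.13 and -0.27 log2 units per 10 percentage points in the miR-433-3p libraries, against -0.22, 0.10 and 0.024 in the scrambled ones. It ranged from -0.27 to 0.14 over all 48 libraries. The part of this axis in the results that follow was not tested. A GC offset is a correction of each library for its own trend on GC content. Values with this offset are also given for the counts, Acad8, Creb1, Grb2, the site classes and some other genes and list medians, but not for all.

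**Figure D2:**
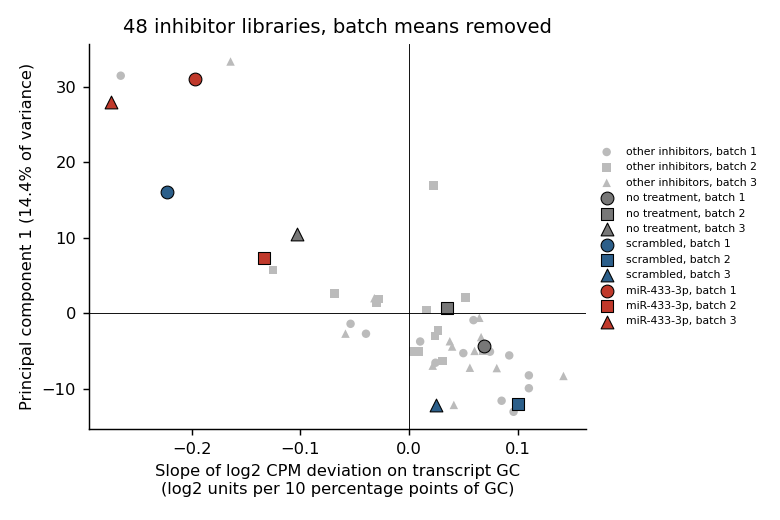
First principal component (y axis, 14.4% of variance, batch means removed) against the slope of log2 CPM deviations on transcript GC content (x axis, log2 units per 10 percentage points), 1 symbol per library of the 48 with the inhibitor experiment's batches as shapes. The 3 miR-433-3p libraries and the scrambled library of batch 1 have slopes between -0.27 and -0.13, whereas the scrambled libraries of batches 2 and 3 have slopes of 0.10 and 0.024. Of the other inhibitors' libraries high on the axis, miR-100-5p of batch 1 has -0.27, miR-152-3p of batch 3 -0.16 and miR-467e-5p of batch 2 0.022.

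Few mRNAs passed the threshold when the miR-433-3p inhibitor was compared with the scrambled one. Of 13029 genes tested with edgeR's quasi-likelihood test, with batch as a block and the spread estimated over all 48 libraries, 11 genes (0.0844%) had an adjusted p under 0.05, 6 of them higher (0.0461%) and 5 lower (0.0384%). At an unadjusted p under 0.05 there were 2575 genes (19.8%), 1214 higher and 1361 lower. DESeq2 on the same counts gave 53 higher genes (0.407%) and 70 lower ones (0.537%), or 0.944% in all. The GC offset left 1 gene called (0.00768%), a lower one, and it was none of the 11. The count turned on single libraries: without the scrambled library of batch 1 there were 821 higher and 909 lower genes, without the miR-433-3p library of batch 2 there were 325 and 416, and without any 1 of the other 4 libraries there was at most 1 gene. The scrambled inhibitor itself, against untreated cells, gave no calls by edgeR or by DESeq2, with 875 genes (6.72%) at an unadjusted p under 0.05. Of the other 13 inhibitors, 6 gave no call against scrambled and the largest count was 335, for miR-1946a.

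The 6 genes that rose have varied roles and none is among the reported targets of miR-433. Zfp97, a KRAB zinc finger gene with a 7mer-A1 site, had 67.7, 66.3 and 75.3 CPM in batches 1, 2 and 3 with the miR-433-3p inhibitor and 54.7, 48.7 and 47.6 CPM with the scrambled one, a log2 fold change of 0.47 ± 0.10 (SE, adjusted p = 0.0499). Its groups did not overlap, as in 4.07% of all genes for a rise. Zbtb6, which codes for a transcription factor with a BTB domain and zinc fingers, had 18.3, 16.1 and 20.8 against 11.2, 11.3 and 11.9 CPM, a log2 fold change of 0.68 ± 0.14 (adjusted p = 0.0403). Pabpc4l, a paralog of the cytoplasmic poly(A)-binding proteins, had 15.0, 11.8 and 10.97 against 10.4, 5.78 and 5.43 CPM, a log2 fold change of 0.81 ± 0.16 (adjusted p = 0.0403). Both genes were separated between the groups in every pairing of libraries, and neither has a seed site. The genes with lower counts were noisier. Shtn1, which codes for the axon guidance protein shootin 1 and holds a 7mer-m8 site, had 6.77, 3.77 and 7.38 against 3.89, 1.68 and 3.44 CPM, so that its groups overlapped although it was higher in each batch (log2 fold change 1.01 ± 0.21, adjusted p = 0.0403). Sycp1, a meiotic gene of the synaptonemal complex with a mean count of only 47.8, had 7.32, 4.11 and 3.08 against 2.87, 1.81 and 0.939 CPM (log2 fold change 1.31 ± 0.27, adjusted p = 0.0403) and lies outside the naming rule for its low count. The last was Gm28661, with 1279, 1127 and 1692 against 968.2, 667.8 and 922.6 CPM (log2 fold change 0.67 ± 0.13, adjusted p = 0.0403). Its 681 bases are 100% identical to a stretch of the mitochondrial genome, so its reads cannot be told apart from mitochondrial RNA, and all its counts are uncertain. All 6 stayed above 0 with the GC offset, between 0.21 for Zfp97 and 1.02 for Sycp1.

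The 5 genes that fell did not overlap between the groups, as in 4.08% of all genes for a fall. Slc30a2, which codes for the zinc transporter ZnT2, had the lowest p of all genes: 85.6, 89.4 and 88.5 CPM with the miR-433-3p inhibitor and 112.4, 117.4 and 108.6 CPM with the scrambled one, a log2 fold change of -0.37 ± 0.064 (adjusted p = 0.0172). It was below all 39 libraries of the other inhibitors as well, which ranged from 90.7 to 124.4 CPM, and below all 3 untreated libraries. Get4, whose protein helps to deliver tail-anchored proteins to the endoplasmic reticulum, had 62.3, 59.9 and 60.3 against 73.7, 82.1 and 81.7 CPM (log2 fold change -0.38 ± 0.080, adjusted p = 0.0435). Cldn4, the gene of the tight junction protein claudin-4, had 123.7, 133.2 and 128.1 against 136.7, 202.7 and 187.5 CPM (log2 fold change -0.44 ± 0.093, adjusted p = 0.0403), and its scrambled library of batch 1 lay nearest to the miR-433-3p libraries. Pycrl, which codes for an enzyme of proline synthesis, had 10.3, 17.1 and 16.8 against 20.8, 24.1 and 25.4 CPM (log2 fold change -0.64 ± 0.13, adjusted p = 0.0403). Chid1, the gene of a chitinase domain protein, had 11.9, 14.8 and 12.0 against 19.8, 18.1 and 16.3 CPM (log2 fold change -0.47 ± 0.098, adjusted p = 0.0403). Slc30a2 and Chid1 hold a 7mer-m8 site, and among the 11 genes that changed none holds an 8mer. All 5 stayed below 0 with the GC offset, between -0.27 for Get4 and -0.52 for Pycrl.

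Against the other references the same libraries gave far more calls. There were 369 higher genes (2.83%) and 537 lower ones (4.12%) against untreated cells, 6.95% in all, and 1324 higher (10.2%) and 1215 lower (9.33%) against the mean of the other 13 inhibitors, 19.5% in all. Of the 11 genes, 9 were called against untreated cells (all but Shtn1 and Chid1), and 11 against the other inhibitors, in the same direction each time. These comparisons share the 3 miR-433-3p libraries and are not independent of the first. The mean of the other 13 inhibitors rests on 39 libraries, against 3 for scrambled. Its number of calls therefore does not compare with that against scrambled as a size of effect.

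The next genes by p did not pass the threshold. On the higher side these were Cdcp1, a transmembrane glycoprotein gene (log2 fold change 0.98, adjusted p = 0.0547), the zinc finger gene Zfp981 (0.43, 0.0547, and 0.11 with the GC offset), Prkar2b, a regulatory subunit of protein kinase A (0.98, 0.0555), Gm10222 (2.17, 0.0610), which is 100% identical to mitochondrial sequence over 294 bases, and Crem, a cAMP-responsive transcription factor (0.68, 0.0610). On the lower side they were Mul1, a mitochondrial ubiquitin ligase (-0.43, 0.0547), Trmt1, a tRNA methyltransferase (-0.34, 0.0547), Plekhg5 (-0.51, 0.0610), Cc2d1a (-0.42, 0.0610) and Gnl1 (-0.34, 0.0648).

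Acad8, the target that the study predicted for miR-433-3p, codes for isobutyryl-CoA dehydrogenase, an enzyme of valine breakdown in mitochondria (ENSMUSG00000031969, chr9:26974135-26999566). It had 31.0, 30.3 and 33.5 CPM with the miR-433-3p inhibitor, 28.6, 30.2 and 31.2 CPM with the scrambled inhibitor and 31.3, 26.9 and 29.5 CPM in untreated cells. The libraries of the groups overlapped, and the means were 31.6 ± 1.65 and 30.0 ± 1.33 CPM (SD, n = 3 each) with the miR-433-3p and scrambled inhibitors. The log2 fold change was 0.08 ± 0.10 (95% interval -0.12 to 0.29, or 0.92-fold to 1.22-fold), with an unadjusted one-sided p of 0.207 in edgeR and an adjusted p of 0.660. Among the other 13 inhibitors Acad8 ranged from 26.1 to 38.5 CPM with a median of 31.4, and against their mean the log2 fold change was 0.0033. The 13 include inhibitors of miR-23b-5p and miR-5615-3p, which the study also predicted to regulate Acad8 (means of 31.5 and 29.3 CPM). The sign turned with the GC offset, which gave -0.036. In separate libraries with the miR-433-3p mimic, Acad8 had 18.3, 13.3 and 13.8 CPM against 22.9, 26.0 and 21 CPM with the scrambled mimic. The mimic libraries were all below the scrambled ones there (log2 fold change -0.61 ± 0.17), with an unadjusted two-sided p of 0.0012 in edgeR and an adjusted p of 0.0627. The study reported this fall as significant by an uncorrected one-sided test. It found no significant change of any predicted target mRNA with the inhibitors. By immunostaining, at a higher dose than used here, it reported that ACAD8 protein rose with both the miR-433-3p mimic and the inhibitor.

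Creb1 and Grb2 were taken as known targets. Creb1 codes for the transcription factor CREB, which responds to cAMP (ENSMUSG00000025958, chr1:64532645-64604548), and carries the pair of 8mers shown above. It had 64.2, 42.9 and 63.2 CPM with the miR-433-3p inhibitor, 60.2, 31.95 and 49.1 CPM with the scrambled one and 47.2, 37.2 and 55.1 CPM in untreated cells. The library with the miR-433-3p inhibitor was higher in each of the 3 batches, but the spread between batches exceeded the difference and the groups overlapped. The log2 fold change was 0.28 ± 0.17 (95% interval -0.055 to 0.62), with an unadjusted one-sided p of 0.0496 and an adjusted p of 0.338, where 1850 of all genes (14.2%) had such a p under 0.05. Against the other 13 inhibitors Creb1 was called, with a log2 fold change of 0.36 and an adjusted p of 0.0304, as were 10.2% of all genes upward. The offset for GC content brought its change against scrambled to 0.086 with a two-sided p of 0.457. The mimic gave 22.8, 25.9 and 30.7 against 31.2, 34.1 and 39.7 CPM (log2 fold change -0.41 ± 0.13, adjusted p = 0.0969).

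Grb2 codes for an adaptor that links receptor tyrosine kinases to RAS (ENSMUSG00000059923, chr11:115644045-115708597). It had 93.8, 103.7 and 94.5 CPM with the miR-433-3p inhibitor and 96.9, 100.5 and 95.3 CPM with the scrambled one, values that overlapped throughout. The log2 fold change was -0.0036 ± 0.086 (95% interval -0.18 to 0.17) with a one-sided p of 0.517, and its sign turned with the GC offset (0.024). With the mimic Grb2 fell, from 115.1, 131.1 and 124.7 to 97.4, 100.8 and 91.1 CPM (log2 fold change -0.36 ± 0.072, adjusted p = 0.0041), without overlap.

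**Figure D3:**
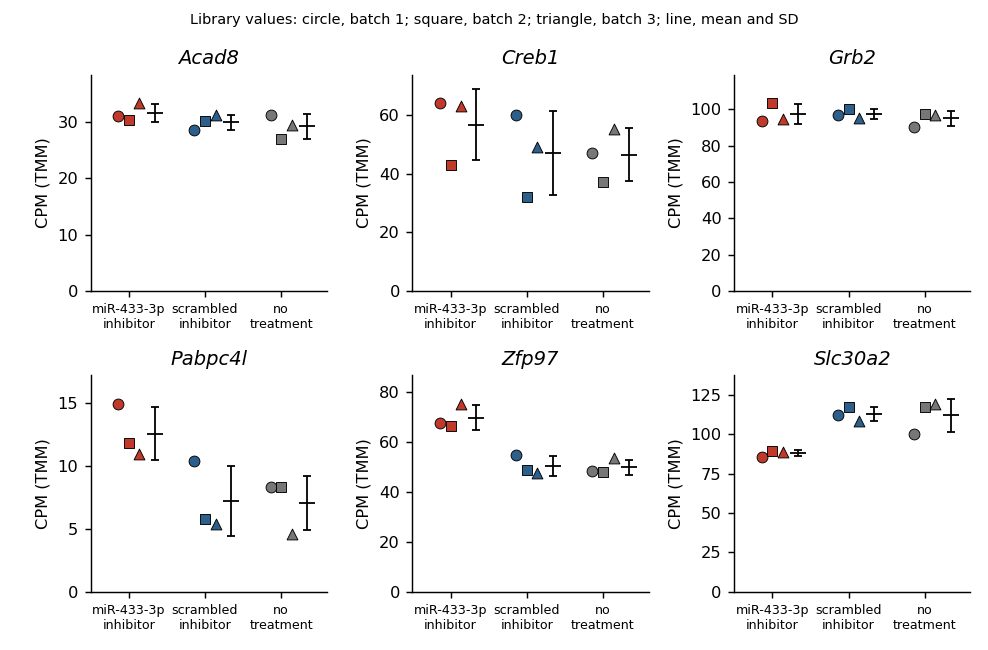
TMM-scaled CPM (y axes, from 0) of the 3 target genes and 3 genes past the threshold, by group (x axis), 1 symbol per library and batch, with the mean and SD of 3 libraries at the right of each group. For Acad8, Creb1 and Grb2 the miR-433-3p and scrambled libraries overlap, whereas for Pabpc4l and Zfp97 they lie above and for Slc30a2 below the scrambled libraries of every batch.

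Of 11 other genes reported as miR-433 targets, 6 were expressed enough to test, and none passed the threshold, as 0.0844% of all genes did. Against the other 13 inhibitors 2 of the 6 were called higher (10.2% of all genes), Rap1a at 0.35 (adjusted p = 0.0057) and Gclc at 0.14 (adjusted p = 0.0452). Azin1, which promotes polyamine synthesis, and Gclc, the rate-limiting enzyme of glutathione synthesis, hold an 8mer. Their log2 fold changes were 0.16 and 0.042 with the inhibitor, against -0.39 (adjusted p = 0.0559) and -0.51 (adjusted p = 0.0204) with the mimic. Rap1a, a small GTPase, was at 0.31 with an unadjusted p of 0.0099 (adjusted p = 0.144), and at 0.096 with the GC offset. The deacetylase gene Hdac6, which has no site here, was at -0.23 (adjusted p = 0.180), the kinase gene Map3k8 at -0.089 (adjusted p = 0.832) and the thymidylate synthase gene Tyms at 0.11 (adjusted p = 0.613).

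Genes with seed sites as a whole were shifted little. Of 458 genes tested with an 8mer none passed the threshold (0.0844% of all genes), 61.6% had a log2 fold change above 0 against 50.3% of all genes, and their median was 0.053 against 0.0018 for all genes. The medians were 0.027 for 774 genes with a 7mer-m8, 0.048 for 1034 with a 7mer-A1 and -0.015 for 10057 genes with a 3′ UTR and no site. In the mimic experiment the medians of the same 4 classes, in that order from the 8mer, were -0.17, -0.073, -0.045 and 0.014. Of 435 genes with an 8mer in both fits the mimic lowered 44, beside 1.02% of all genes in its fit. Against the other 13 inhibitors 79 of the 458 genes with an 8mer were called higher and 17 lower, beside 10.2% and 9.33% of all genes, and in that comparison the log2 fold change correlated with transcript GC content at a Pearson's r of -0.52 across 13023 genes. The groups did not overlap for 31 of the 8mer genes upward (4.07% of all genes) and for 10 downward (4.08%).

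The difference between 8mer genes and genes without a site varied by batch. The 8mer median minus the no-site median was 0.068 in the fit, and -0.035, 0.12 and 0.14 within batches 1, 2 and 3 (SD 0.096), so batch 1 had the opposite sign. In batch 1 both libraries had a negative GC slope, and the correlation across genes of the log2 difference with transcript GC content was 0.042 there, against -0.45 and -0.41 in batches 2 and 3 (Pearson's r over 13023 genes in the fit was -0.33, where genes of 1 library share its depth and composition). Genes with an 8mer have AT-rich 3′ UTRs, with a median GC content of 41.6% against 46.4% without a site. Under the GC offset the 8mer median was -0.033 and the no-site median -0.024, a difference of -0.0089. The 7mer-m8 and 7mer-A1 medians were -0.035 and -0.023 under this offset.

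**Figure D4:**
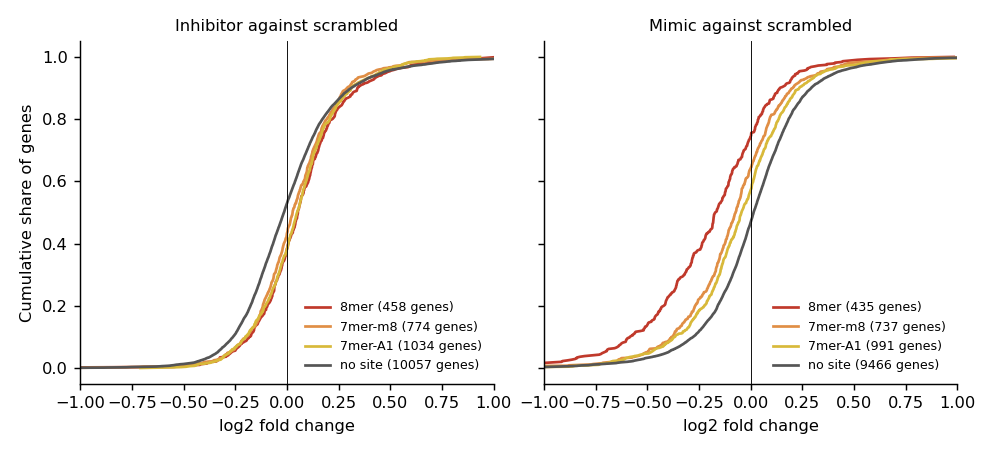
Cumulative share of genes (y axis) by log2 fold change (x axis, shown from -1 to 1) for the inhibitor (left) and the mimic (right) against their scrambled controls, 1 line per class of seed site. With the inhibitor the medians of the classes lie between -0.015 and 0.053, and with the mimic between -0.17 and 0.014.

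Within quartiles of 3′ UTR GC content (bounds 40.0%, 45.6% and 51.3%), a split made after seeing the data, the 8mer minus no-site difference was 0.046, 0.013, -0.0016 and 0.015 from the lowest to the highest quartile. The mimic gave -0.23, -0.16, -0.16 and -0.070 in the same quartiles. The quartile of 3′ UTR GC content itself went with larger differences in the inhibitor contrast, the medians of all genes falling in order from 0.11 and 0.034 to -0.054 and -0.14. Within quartiles of 3′ UTR length, a further split, the 8mer difference was 0.035, 0.099, 0.054 and 0.036 with the inhibitor and -0.30, -0.24, -0.19 and -0.12 with the mimic. With the GC offset the inhibitor's differences in these length quartiles were mixed in sign, at -0.040, 0.042, 0.0013 and -0.015.

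**Figure D5:**
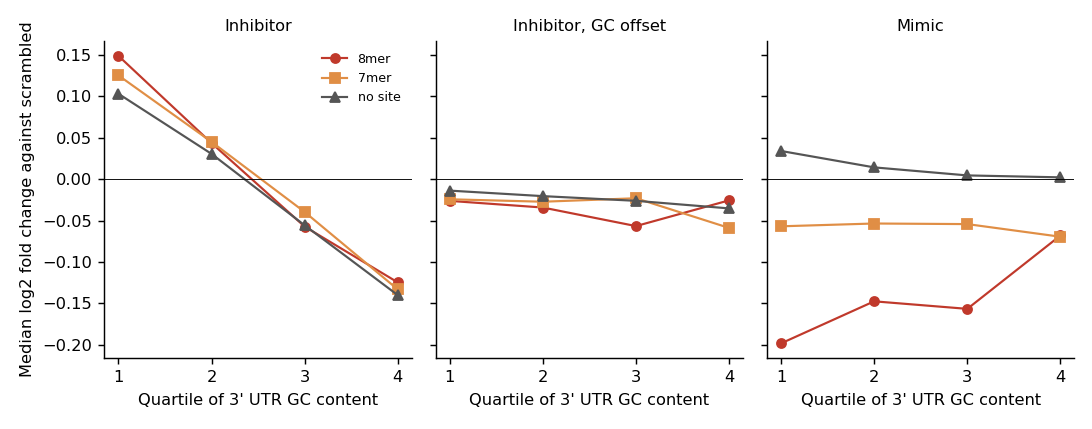
Median log2 fold change against scrambled (y axis) by quartile of 3′ UTR GC content (x axis, lowest first) for genes with an 8mer, with a 7mer and without a site, for the inhibitor, the inhibitor with the GC offset and the mimic. With the inhibitor the site classes run together down the quartiles, and with the mimic the 8mer line lies 0.070 to 0.23 below the no-site line.

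Single genes with an 8mer came near the threshold in both directions. On the higher side these were Mindy2, a deubiquitinase gene, with 19.4, 16.6 and 20.8 against 16.0, 10.2 and 13.5 CPM (log2 fold change 0.53 ± 0.14, adjusted p = 0.0768), and the zinc finger gene Zfp958 (0.44 ± 0.12, adjusted p = 0.0837). The values of Mindy2 did not overlap, and in the mimic libraries its log2 fold change was -0.84 (adjusted p = 0.0679). On the lower side they were Smg5, a factor of nonsense-mediated decay (-0.24 ± 0.065, adjusted p = 0.0789), which the mimic also lowered (-0.41, adjusted p = 0.0021), and Thap4 (-0.34 ± 0.10, adjusted p = 0.0907).

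The mimic experiment gave a list of responsive genes from other libraries with another scrambled control. The mimic lowered 127 of 12502 genes (1.02%) and raised 71 (0.568%), and 126 of the lowered genes could be tested with the inhibitor. None of these 126 passed the threshold with the inhibitor (0.0844% of all genes), 66 (52.4%) were above 0, and their median was 0.024 (-0.025 with the GC offset, and -0.046, 0.055 and 0.10 in batches 1, 2 and 3). Against the other 13 inhibitors 25 of the 126 were called higher and 9 lower, beside 10.2% and 9.33% of all genes. The 44 of them with an 8mer had a median of 0.035, the 42 with a 7mer 0.029 and the 38 without a site -0.032. Of the 70 genes that the mimic raised and that were tested, 74.3% were above 0 with the inhibitor, beside 50.3% of all genes. Their median was 0.073, but 0.0014 with the GC offset. Across 12195 genes in both fits the log2 fold changes of inhibitor and mimic had a Pearson's r of 0.043, and across 435 genes with an 8mer of -0.091.

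Prdx3, the mitochondrial peroxiredoxin, illustrates the contrast between the experiments. The mimic took it from 42.7, 59.7 and 43.7 to 17.7, 18.3 and 18.3 CPM (log2 fold change -1.41, adjusted p = 2.79e-09), whereas with the inhibitor it had 52.4, 48.4 and 60.2 against 56.8, 45.3 and 46.3 CPM (log2 fold change 0.11 ± 0.094, adjusted p = 0.501), values that overlapped. Naa40, an N-terminal acetyltransferase of histones, was lowered by the mimic (-0.70, adjusted p = 2.325e-06) and had a log2 fold change of -0.13 ± 0.060 with the inhibitor (adjusted p = 0.216). Mapk8, the kinase JNK1, was lowered by the mimic (-0.73, adjusted p = 0.0023) and had 45.7, 40.8 and 40.5 against 39.8, 30.4 and 33.3 CPM with the inhibitor, without overlap (0.30 ± 0.11, adjusted p = 0.151).

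No member of the 24 gene lists passed the threshold, so the lists are described by medians and by counts at an unadjusted p under 0.05, which 9.32% of all genes reached upward and 10.4% downward. The lists around the targets came first. Of 24 genes of branched-chain amino acid breakdown, the pathway of Acad8, 1 was higher (Mut, 0.18) and 2 were lower (Bcat2, -0.24, and Bckdha, -0.28), with a median of 0.016. Of 25 genes of GRB2-RAS-ERK signalling, the pathway of Grb2, 2 were higher and 6 were lower, with a median of -0.068. Fgfr1, a receptor for fibroblast growth factors, had 110.6, 145.8 and 116.8 against 139.4, 173.2 and 161.2 CPM (-0.34 ± 0.092, adjusted p = 0.0789), and Map2k2 and Ptpn11 were at -0.36 and -0.17. Of 12 genes listed with the CREB family and its coactivators 2 were higher, and the median was 0.028. These were Crem, of the CREB family, and Prkar2b, a protein kinase A subunit that is neither a family member nor a coactivator. Crem had 10.6, 7.10 and 8.52 against 4.28, 5.39 and 6.78 CPM, without overlap.

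Genes of the miR machinery and locus, and of responses to foreign RNA and stress, followed. Of 19 genes of the miR pathway, Ddx6 was higher (0.22) and Lin28a lower (-0.25), with a median of -0.047. Of 5 genes tested from the Dlk1-Dio3 domain none reached the unadjusted p, and their median was 0.11 (0.036 with the GC offset). The domain's RNAs Rian, Meg3 and Mirg were at 0.11, 0.055 and 0.14. Of 13 genes tested of the interferon response (of 27 listed) 3 were higher, among them the restriction factor Ifitm3 (0.36) and Oasl1 (0.77), and the median was -0.0034. The p53 response (14 genes, 2 lower), the integrated stress response and unfolded proteins (16 genes, 1 higher and 1 lower) and cholesterol synthesis (18 genes, 4 lower) had medians of -0.11, -0.032 and -0.071. With the GC offset these medians were -0.036, 0.049 and -0.078.

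Cell state genes gave mixed values. Nanog, a factor of naive pluripotency, had 951.0, 836.7 and 838.9 CPM against 838.5, 702.4 and 675.0 CPM, so that the lowest miR-433-3p library lay just below the highest scrambled one (log2 fold change 0.25 ± 0.065, adjusted p = 0.0768). Of 16 naive genes 3 were higher, Nanog and Prdm14 (0.20) among them, and 2 were lower, Nr0b1 (-0.34) and Tcl1 (-0.24), with a median of -0.0012. The 4 core pluripotency genes had a median of -0.069 and none reached the unadjusted p. Of 11 genes of primed and formative cells 3 were lower, Dnmt3b (-0.24), Sox3 (-0.89) and Tcf15 (-0.51). The median of the 11 was -0.10 (-0.030 with the GC offset). Lineage lists had few expressed members: primitive endoderm 11 of 15 with a median of -0.060, neuroectoderm 5 of 12 with -0.051, mesoderm 4 of 10 with 0.086 and trophoblast 5 of 10 with -0.042. Eomes, a T-box factor of the mesoderm list, had 11.9, 7.20 and 10.9 against 6.58, 5.26 and 6.99 CPM, without overlap (0.66 ± 0.16, adjusted p = 0.0723). Of 9 fibroblast markers 6 had no count in any of the 6 libraries and 2 were tested, with a median of 0.30 (0.41 with the GC offset). Their summed level was 6.61 to 8.04 CPM (unscaled by TMM) against 4.95 to 6.65.

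The 2-cell-like genes, which mark a rare state in mESC cultures, had the largest median of the 24 lists. All 6 tested 2-cell-like genes (of 12 listed) were above 0, with a median of 0.63 (0.47 with the GC offset, and 0.28 against the other 13 inhibitors), and 2 of them reached the unadjusted p. Their summed level was 10.3 to 17.1 CPM with the miR-433-3p inhibitor and 7.11 to 11.4 with the scrambled one, so the groups overlapped. Zscan4c, a gene of this list, reached 19.3 CPM in a library of another inhibitor, above all 3 miR-433-3p libraries. Genes for abundant RNAs depended on the scale. Of 33 cytosolic ribosomal protein genes 12 were higher and 1 lower, with a median of 0.17 (0.20 with the GC offset), but on the deposited TPM scale the mean was higher with the miR-433-3p inhibitor for 13 of them and lower for 20. Rpl23 (0.68) had 785.8, 531.8 and 809.1 against 586.2, 404.3 and 335.9 CPM, Rpl32 was at 0.62, and the groups overlapped for both genes. For Rpl32 the mean TPM went the other way, from 5549 with the scrambled to 5466 with the miR-433-3p inhibitor. Of 22 nuclear-encoded genes of oxidative phosphorylation 8 were higher, among them Ndufa1 (1.22) and Ndufa4 (0.78), and 3 lower, among them Cyc1 (-0.27), with a median of 0.080, whereas the mean TPM was higher for 9 and lower for 13. All 13 mitochondrially encoded protein genes, a list taken after their values were seen, were above 0 with a median of 0.43 (0.13 with the GC offset), but by mean TPM 8 were higher and 5 lower. mt-Atp6, a subunit of ATP synthase, had 436.1, 249.5 and 490.3 against 234.5, 165.2 and 151.9 CPM (1.10 ± 0.26, adjusted p = 0.0681). Mitochondrial genes took 1.56%, 1.82% and 2.25% of the counts with the miR-433-3p inhibitor in batches 1, 2 and 3, the last being the highest share of the 48 libraries, and 1.58%, 1.40% and 1.63% with the scrambled one. In batch 1 the share was thus nearly equal.

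Cell cycle genes leaned the other way. Of 21 tested, 7 were lower and none was higher at an unadjusted p under 0.05, with a median of -0.092 (-0.087 with the GC offset), while by mean TPM 9 were higher and 12 lower. Ccne1, the gene of cyclin E1, which carries a 7mer-A1 site, had 86.9, 91.5 and 82.4 against 101.3, 107.5 and 116.4 CPM, without overlap (log2 fold change -0.32 ± 0.082, adjusted p = 0.0768). The mimic lowered Ccne1 too (-0.41, adjusted p = 0.0080). Cdc20, an activator of the anaphase-promoting complex, and the transcription factor gene E2f1 were both at -0.27.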

How the data were processed

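RNA-seq files of 48 inhibitor and 47 mimic libraries (stranded kit) and 32 small RNA libraries of untransfected cells were used. The authors trimmed reads with Trimmomatic 0.38, aligned them with STAR 2.6.1a to mm10 (Ensembl 93) and deposited RSEM 1.3.1 expected counts and TPM values per gene. Small RNA read counts per miR were deposited by the authors from mirdeep2 2.0.1.2 and miRBase 22.1. The mimic library of miR-100-5p replicate 3 was left out, as in the study.

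Here expected counts were rounded, and genes averaging more than 20 counts per fitted library entered edgeR 4.0.16 (TMM, quasi-likelihood, R 4.3.3), with terms for group and for batch, which the labels give. Deviations of same-numbered miR-433-3p and scrambled libraries correlated at 0.27, 0.47 and 0.11. Pairs of unlike number ranged from -0.43 to 0.15, the highest being miR-433-3p replicate 3 with scrambled replicate 1. The Benjamini-Hochberg procedure over all genes gave the adjusted p-values, and 0.05 was the threshold. Unadjusted p-values for Acad8, Creb1 and Grb2 are one-sided unless called two-sided. CPM are TMM-scaled. Within-batch differences are of log2(CPM + 0.5). Principal components used limma 3.58.1 and DESeq2 1.42.0 was an alternative. The GC offset is a loess fit (span 0.5) of each library's log counts on transcript GC content. Sites were searched in the longest annotated 3′ UTR (GENCODE M21). Of 54146 identifiers 99.9% had a symbol. No library pair differed by as little as sampling noise. p-values rest on the spread left between libraries after the terms for group and batch. It was estimated over all 48 inhibitor or 47 mimic libraries, most of them of other miRs.

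Genes were named where they were past the threshold, averaged 50 or more counts and changed alike in all 3 batches, and by lowest p up to 10 per direction, within each list, and among 8mer or mimic-lowered genes, together with reported targets. Members and lists were chosen with earlier results of these data known. Scripts were tested on simulated data. Alternatives were DESeq2, its size factors, other count filters, no block, the 6 libraries alone, other references, each library left out and the GC offset.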

Additional observations from a re-analysis of the deposited data

Results flagged for a closer look

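Of 16 sets of 4 small RNA libraries checked (8 times on each of 2 scales), 2 held a library far from the other 3, where chance gives about 1 in 20 sets. Both scales use the same libraries, so the sets are not independent. At 24 h miR-433-3p was at 595.6 CPM in replicate 7, against 2213 to 2354 CPM in the other 3, a gap of 0.92 of the whole range. On the TMM scale the same library was at 2038 CPM, within the 1882 to 2392 CPM of the others. Replicate 7 had the lowest unscaled CPM at every time. At 6 h replicate 4 was at 6382 CPM on the TMM scale, against 2034 to 2413 CPM in the others, a gap of 0.91 of the range. Without TMM this library was also the highest, at 6696 CPM, with a gap of 0.68. Neither library was transfected.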

How the results depend on the processing

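The numbers of genes past the threshold depended on the processing, and the cause was not tested. Against 6 higher and 5 lower genes, DESeq2 gave 53 and 70, no filter on low counts 118 and 112, untreated cells as reference 369 and 537, and the other 13 inhibitors 1324 and 1215. The 6 libraries alone gave 10 higher genes and 4 lower, with none of the 11 among them. The GC offset, which was chosen after seeing the data, left 0 higher and 1 lower, Slc30a5, a zinc transporter gene outside the naming rule (log2 fold change -0.44, adjusted p = 0.0145; -0.30 and 0.0836 without the offset). At an adjusted p under 0.01 there were 0 and 0. Leaving out 1 library or 1 batch in turn gave 0 to 821 higher and 0 to 909 lower genes. All 11 called genes kept their direction in every setting in which they were fitted.

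In the fit with no replicate block there were 0 higher and 0 lower genes, and Creb1 was at 0.27 with a one-sided p above the threshold. With the GC offset and the replicate block Creb1 was at 0.086, also past no threshold, Acad8 reversed to -0.036 and Grb2 to 0.024. Grb2 was also positive with a filter on each of the 6 libraries (0.0042), against untreated cells (0.035) and against the other inhibitors (0.0048). Over left-out libraries Acad8 ranged from 0.018 (without the miR-433-3p library of batch 3) to 0.13 (without the scrambled library of batch 3) and passed the threshold in none. Creb1 ranged from 0.13 to 0.44 and Grb2 from -0.041 to 0.024. The one-sided edgeR p of Creb1 ranged from 0.012 to 0.24. It was under 0.05 only without the miR-433-3p library of batch 2 or the scrambled library of batch 1. Scrambled against untreated cells gave 2 calls with no filter and 1 from the 6 libraries alone, against 0. The mimic gave 198 calls, 118 with no filter, 44 with no block, 33 from the 6 libraries alone and 91 to 184 with a library left out.

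Small values of single genes changed sign. Under the GC offset Azin1 was at -0.049 and Rian at -0.19. Against untreated cells Map3k8 was at 0.12, Tyms at -0.16, Meg3 at -0.077 and Mirg at -0.094, and Map3k8 was at 0.062 against the other inhibitors. With a library left out Map3k8 ranged from -0.26 to 0.022, Gclc from -0.010 to 0.076, Rian from -0.027 to 0.28, Meg3 from -0.038 to 0.17 and Prdx3 from -0.012 to 0.24. With 3 libraries per group, the 95% interval of Acad8 reached from -0.12 to 0.29, which holds changes of up to 1.22-fold.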
